A study of Homo sapiens with 12 samples.

Results

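Geniposide, an iridoid glycoside of gardenia fruit, was compared with no treatment in the 6 libraries labelled HepG2, a human hepatoblastoma line, out of 12 libraries in the study. Of the 6, 3 came from untreated cells and 3 from cells given geniposide for 48 h, and no dose, vehicle or modified allele is named in the labels. The other 6 libraries repeat the design in cells labelled Huh7, from a hepatocellular carcinoma, and enter here only where the 2 lines are compared. Poly(A) RNA was sequenced, and the deposited unit is FPKM (fragments for each kilobase of a gene, relative to the total of its library). The HepG2-labelled libraries held 15493307 to 17211659 fragments assigned to genes. A gene was tested where 3 or more of the 6 libraries held 1 FPKM or above, which left 13119 genes, 10770 of them protein-coding. Nothing in the labels says that the 3 libraries of a group came from separate cultures, so p-values measure the spread between these libraries, which may be technical.

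The HepG2 label was checked against liver genes. ALB (albumin), TTR (transthyretin), AFP (alpha-fetoprotein), APOB (the lipoprotein core protein) and the fetal liver antigen GPC3 were listed at 0 in all 6 libraries. Of the 13 oncofetal liver genes that include AFP and GPC3, 6 passed the filter, with a summed level of 230 to 250 FPKM per untreated library. Of 29 secreted hepatocyte proteins, 9 were at 0 in every library and 2 passed the filter, complement C3 and the plasma protein VTN. Of 14 hepatocyte transcription factors 2 passed it, and HNF4A stood at 0.252 FPKM in the untreated mean. Of 18 hepatocyte enzymes 3 passed the filter and 6 were at 0 in every library, while CPS1 (240 FPKM) and ASS1 (146 FPKM) of the urea cycle were abundant. Against the defining markers of the line, the label is therefore used below only as a name. No leukocyte marker of 12 and 1 endothelial marker of 10 (ESAM, 2.28 FPKM untreated) passed the filter.

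A few library facts bear on the results. The third geniposide library stood somewhat apart from the other treated libraries (chi-square per degree of freedom 5.90 and 6.58, against 2.44 between the other 2 and 2.40 to 2.67 between untreated libraries). The third untreated library alone held neutrophil and red cell transcripts, S100A9 at 30.1, S100A8 at 8.22 and HBB at 7.62 FPKM, while the other HepG2-labelled libraries held 0 to 0.228 FPKM. Fragments in lncRNA genes made up 1.12% to 1.17% of untreated and 1.47% to 1.51% of treated libraries. Fragments from mitochondrial genes took 4.47% to 4.55% and 3.70% to 4.11%. The part of these shares in any result below was not tested.

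Several pathways that recur below are known as follows. When oxygen or prolyl hydroxylase activity is low, hypoxia-inducible factors HIF1A and EPAS1 escape degradation, pair with ARNT and raise genes of glycolysis, angiogenesis and pH control. The circadian clock runs on CLOCK and BMAL1, which drive PER, CRY and NR1D1 genes whose products repress that drive in turn. Growth signals and MYC sustain ribosome assembly, tRNA charging, nucleotide synthesis and mitochondrial output. Ferroptosis is a death by iron-driven lipid peroxidation, held back by glutathione, GPX4 and AIFM2, and the study's title places geniposide's action there and at the oxidase DUOX1.

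The comparison moved many genes by small amounts. At a limma adjusted p under 0.05, 7635 of 13119 genes were called (58.2%), 3700 higher with geniposide (28.2%) and 3935 lower (30%). With TPM scaling 4374 were higher and 3326 lower. A change of at least 2-fold on the log2(FPKM + 1) scale was called for 268 genes upward (2.04%) and 177 downward (1.35%). The treated and untreated values did not overlap for 8583 genes (65.4%). The median change over all genes tested was 0.00. With so wide a background, a list in which about 3 members in 10 rose and as many fell holds no more calls than the genes at large. FPKM are shares of a library, so fewer cells of a type, less RNA per cell and a changed total cannot be told apart in any value below.

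**Figure D1:**
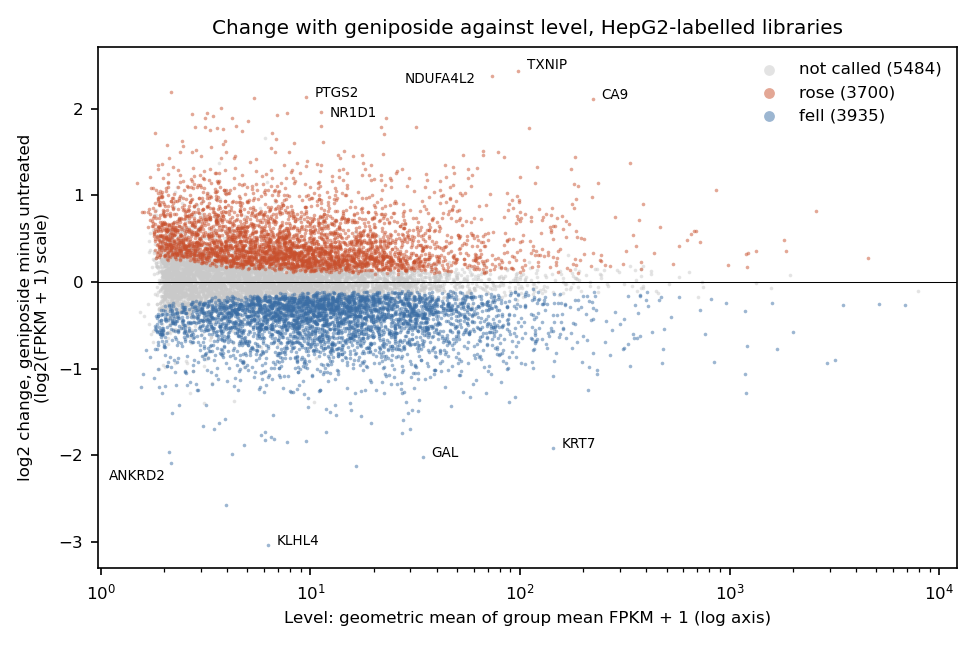
Each point is a tested gene, placed by its level (geometric mean of the 2 group means of FPKM + 1, log axis) and by its change with geniposide on the log2(FPKM + 1) scale, in red where it rose (3700), blue where it fell (3935) and grey where it was not called. Most calls lie within 1 log2 unit of 0, and TXNIP, NDUFA4L2 and KLHL4 stand at the edges.

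Among the 12 largest rises, TXNIP, NDUFA4L2, PTGS2, A2M and CA9 came first on the log2(FPKM + 1) scale. TXNIP, an arrestin that restrains glucose uptake and binds thioredoxin, stood at 42.3, 42.3 and 38.8 FPKM untreated and at 222, 229 and 231 FPKM with geniposide. It lies on the minus strand of chromosome 1 from 145992435 to 145996600 (hg38), and its log2 change was 2.44 ± 0.04 (SE, n = 3 per group; limma adjusted p = 5.7e-07). The treated values were more than 5 times the untreated ones, a ratio of means of 5.53. NDUFA4L2, a mitochondrial protein known as a hypoxia target, went from 32.8, 32.4 and 28.7 to 170, 170 and 159 FPKM, a change on that scale of 2.37 ± 0.06. CA9, the cell surface carbonic anhydrase that exports acid from hypoxic tumour cells, went from 108, 112 and 96.7 to 438, 461 and 484 FPKM (2.11 ± 0.06). In each of these genes all treated libraries lay above all untreated libraries, which the rule for choosing them required. The spread within a group was small.

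PTGS2, the inducible cyclooxygenase, went from 3.47, 3.35 and 3.77 to 21, 19 and 17.1 FPKM (2.14 ± 0.08, limma adjusted p = 3.5e-06). A2M, a broad protease inhibitor of plasma, went from 1.59 ± 0.177 to 10.3 ± 0.849 FPKM (SD), and CP, the copper ferroxidase ceruloplasmin, from 2.93 ± 0.297 to 14.2 ± 0.631 FPKM. NR1D1, the REV-ERB alpha repressor of the clock, stood at 4.90, 4.94 and 4.33 FPKM untreated and at 20.8, 21.4 and 21.5 FPKM treated. Apart from P2RY11, the remaining rises among the leading 12 started near or below 1 FPKM. Those genes passed the filter through their treated values and could hardly be called other than higher. SLC6A12, a betaine carrier, went from 0.862 to 6.51 FPKM, and IL3RA, an interleukin receptor chain, from 0.636 to 5.33 FPKM. CASP14, a skin caspase, had the widest treated spread, at 2.66, 4.50 and 6.12 FPKM against 0.278 to 0.442 untreated. P2RY11, a nucleotide receptor, went from 2.52 to 12.5 FPKM, and its fragments cannot be separated with certainty from those of the neighbouring read-through gene with PPAN. The histone gene HIST1H4C (0.685 to 4.90 FPKM) has near-identical copies, so its value is uncertain too.

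Among the 12 largest falls, KLHL4, ANKRD2, GAL, KRT7 and CHAC2 came first on the same scale. KLHL4, a Kelch-domain gene on chromosome X (87517749 to 87670050, plus strand), stood at 17.1, 16.6 and 17.2 FPKM untreated and at 1.16, 1.19 and 1.24 FPKM treated, and its log2 change was −3.03 ± 0.05. This 14.2-fold lower mean was the largest fall of the 12 on the log2(FPKM + 1) scale, and the 3 treated values almost coincide. KRT7, a keratin of ductal epithelium, went from 274, 286 and 276 to 74.4, 71.2 and 73.1 FPKM (−1.92 ± 0.03). GAL, the neuropeptide galanin, stood at 67.3, 73.2 and 63.6 against 16.6, 13.3 and 18.8 FPKM. ANKRD2, a muscle stress protein, was at 3.22 to 3.94 FPKM untreated and at 0.141, 0 and 0 FPKM treated. CHAC2, which degrades glutathione, went from 13.6 ± 0.741 to 3.07 ± 0.156 FPKM, from 242 to 280 fragments down to 56 to 64. ODC1, the first enzyme of polyamine synthesis, fell from 52.8 to 15.7 FPKM. SDF2L1, an endoplasmic reticulum chaperone partner, fell from 48.7 to 13.9 FPKM. EDN2 (an endothelin), TNNC1 (a troponin), SEMA6B (a semaphorin), AP1M2 (an epithelial sorting adaptor) and HRCT1 completed the 12, each with 3.74- to 4.43-fold lower treated means.

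**Figure D2:**
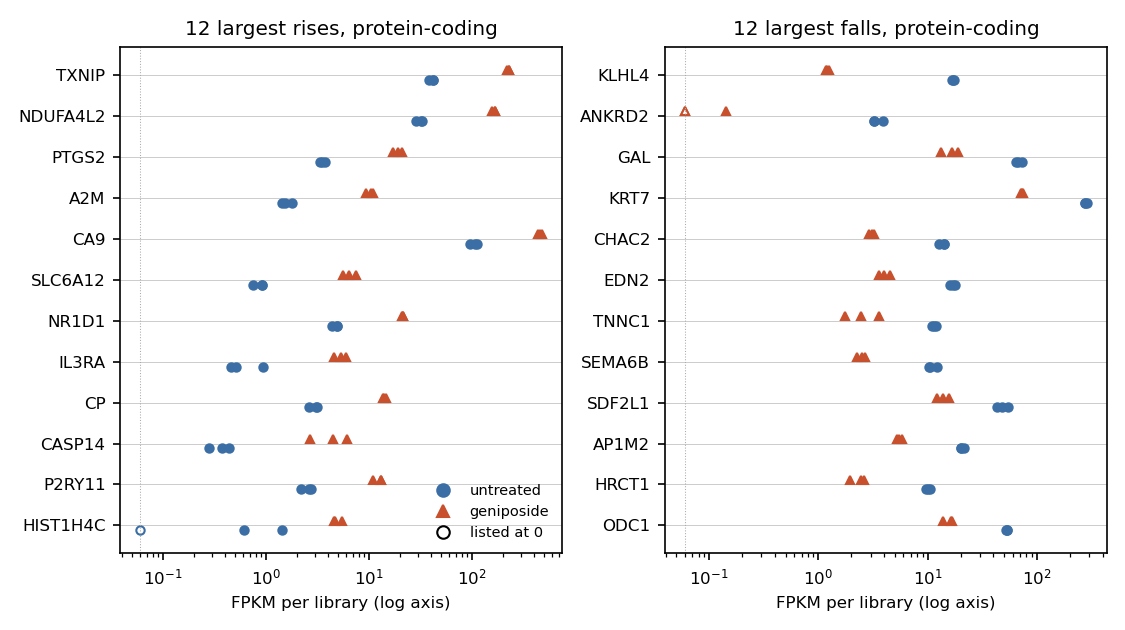
FPKM per library (log axis) of the 12 largest rises and 12 largest falls among protein-coding genes, ordered by log2(FPKM + 1) change, with circles for the 3 untreated and triangles for the 3 geniposide libraries and open symbols at the dotted line for values listed at 0. No gene shown has overlapping groups, which the rule for choosing them required.

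Hypoxia targets rose almost as a body. Outside glycolysis, 28 of 30 listed genes were tested, 26 rose and 1 fell, with a median change of 0.91 against 0.00 for all genes. VEGFA, the angiogenic growth factor, went from 32.2, 30.8 and 30.7 to 86.0, 91.9 and 87.1 FPKM (1.47 ± 0.04, limma adjusted p = 1.8e-06). BNIP3, a mitophagy receptor, went from 50.4, 48.5 and 50.8 to 133, 139 and 140 FPKM, and P4HA1, a collagen prolyl hydroxylase, from 36.5, 35.7 and 36.1 to 83.3, 85.7 and 83.9 FPKM. All 3 genes more than doubled with no overlap of the groups. They were named for their small p, and the groups did not overlap in 65.4% of all genes tested. The transcripts of the factors themselves moved little: HIF1A stood at 86.5 untreated and 80.0 FPKM treated (−0.11, limma adjusted p = 0.0606), and EPAS1 at 23.7 and 27.5 FPKM (0.21, adjusted p = 0.00115). The oxygen-sensing hydroxylase EGLN1, itself a target, rose from 29 to 44.3 FPKM. Of 34 matrix and TGF-beta target genes 22 were tested, 11 rose and 6 fell.

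Glycolysis rose with them. Of 35 genes of glycolysis and glucose uptake 30 were tested, 26 rose and 3 fell, with a median change of 0.45. The 26 include TXNIP, which restrains glucose uptake and had the largest rise of the list. ENO2 (an enolase) went from 66.2, 63.4 and 64.2 to 145, 151 and 158 FPKM, ALDOC (an aldolase) from 38.5 ± 2.30 to 97.5 ± 1.27 FPKM, and GPI (the hexose phosphate isomerase) from 132 ± 3.14 to 258 ± 2.27 FPKM. The abundant enzymes moved as well. PGK1, phosphoglycerate kinase, went from 634, 591 and 567 to 1238, 1242 and 1263 FPKM, and GAPDH, often taken as a reference gene, from 1974, 1911 and 1947 to 3411, 3440 and 3448 FPKM. SLC2A1, the main glucose carrier, rose from 104 to 133 FPKM and LDHA, lactate dehydrogenase A, from 530 to 741 FPKM. The other lactate dehydrogenase subunit, LDHB, fell from 16.5 to 9.23 FPKM. With all 12 libraries in the fit, 16 glycolysis genes rose and 1 fell, and 20 hypoxia targets rose.

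The clock genes formed another group that rose. Of 19 listed genes 16 were tested, 13 rose and 1 fell, with a median change of 0.90. Untreated means reached 1 FPKM in 12 of the listed genes and treated means in 17. Some, such as PER2, thus passed the filter because of their treated values, and could hardly be called other than higher. With a filter of 5 FPKM 7 rose. Besides NR1D1, the period gene PER1 went from 11.7, 11 and 11.6 to 39.1, 42.2 and 37.6 FPKM (1.71 ± 0.05, limma adjusted p = 2.6e-06). The output factors DBP and TEF, which bind the same D-box element, went from 3.80 ± 0.399 to 13.6 ± 0.771 FPKM and from 1.20 ± 0.141 to 5.61 ± 0.253 FPKM. PER2 stood at 0.749 untreated and 3.37 FPKM treated, and CRY2 at 1.19 and 3.94 FPKM. Every one of these was higher in all treated libraries, but they were named for small p or after their values were seen. Over all genes tested, the groups did not overlap in 65.4%. Of the driving pair, CLOCK stood at 3.02 and 2.83 FPKM, not called, and BMAL1 fell from 3.45 to 2.58 FPKM. BMAL1 lost its call without the first untreated library, without the first geniposide library, without the second and without a filter on low values, and 0 clock genes then fell. BHLHE40, a hypoxia target and clock repressor, is on both lists and rose from 113 to 172 FPKM.

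**Figure D3:**
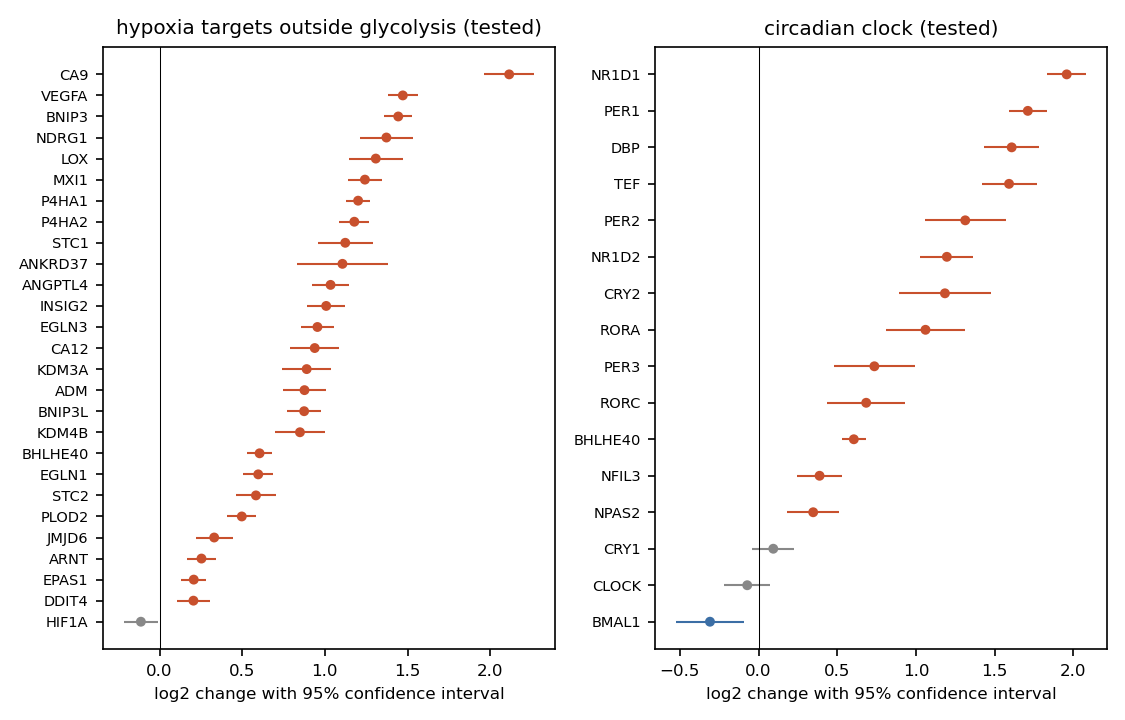
Points give the log2(FPKM + 1) change with geniposide of tested hypoxia targets outside glycolysis (left, 27 of the 28, 1 being not reported here) and clock genes (right, 16 genes), with bars for the 95% confidence interval, red for rises, blue for falls and grey for no call. Rises fill both panels, and BMAL1 is the clock gene that fell.

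HIF and CLOCK-BMAL1 bind related letters, and upstream stretches from some members of these lists were searched for them. Among the members named above, CA9, VEGFA, P4HA1, ENO2, GPI, ALDOC and DBP gave no stretch that was kept. The 4 stretches shown were picked from those with a match, so that each holds one was fixed by the choice. Each is taken from the 250 bases before the RefSeq start (GRCh38.p14), cut to the part that lies in no exon of GENCODE 29, and written 5′ to 3′ on the gene's strand. Capitals mark ACGTG on either strand, which is a form of the core of a hypoxia response element. The form GCGTG was not searched for and is not marked. The E-box CACGTG bound by CLOCK-BMAL1 contains ACGTG on both strands, so the 2 motifs overlap.
BNIP3, chr10:131982014-131982173, minus strand: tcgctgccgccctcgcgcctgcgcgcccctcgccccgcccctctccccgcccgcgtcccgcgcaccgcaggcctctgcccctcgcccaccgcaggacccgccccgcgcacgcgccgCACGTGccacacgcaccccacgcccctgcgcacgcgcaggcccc
PGK1, chrX:78103998-78104173, plus strand: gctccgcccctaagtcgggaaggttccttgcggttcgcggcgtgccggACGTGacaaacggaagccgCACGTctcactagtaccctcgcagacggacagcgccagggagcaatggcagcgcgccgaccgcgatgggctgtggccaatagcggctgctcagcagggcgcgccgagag
PER1, chr17:8152436-8152654, minus strand: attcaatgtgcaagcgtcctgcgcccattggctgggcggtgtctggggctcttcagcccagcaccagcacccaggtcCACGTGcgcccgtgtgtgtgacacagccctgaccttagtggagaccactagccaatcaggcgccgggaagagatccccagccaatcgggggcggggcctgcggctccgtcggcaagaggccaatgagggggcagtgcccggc
NR1D1, chr17:40100726-40100839, minus strand: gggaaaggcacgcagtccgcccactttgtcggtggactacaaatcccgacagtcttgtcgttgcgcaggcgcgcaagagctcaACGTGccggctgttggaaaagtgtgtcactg
BNIP3 and PER1 hold the E-box. PGK1 holds 2 separate ACGTG matches 202 and 183 bases before its start, and NR1D1 holds 1 such match 167 bases before its start. Among all 35116 RefSeq windows of 250 bases, 18.5% held ACGTG and 6.34% held CACGTG on either strand. Of 33 windows of the hypoxia targets 16 held ACGTG (48.5%), of 61 windows of glycolysis genes 21 (34.4%), and of 26 windows of clock genes 12 (46.2%), 7 of them as CACGTG (26.9%). The windows are those of all list members, called or not, and the hypoxia list was made of known targets. These shares therefore do not bear on the response to geniposide. A gene can have several windows that overlap. A match is a description of letters and says nothing of binding.

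Immediate early genes and their feedback inhibitors rose too. Of 28 AP-1 and immediate early genes 25 were tested, 18 rose and 2 fell, with a median of 0.62. EGR1, a zinc finger factor of the first wave, went from 1.78, 1.66 and 1.48 to 6.06, 5.49 and 6.80 FPKM (1.43 ± 0.09, limma adjusted p = 1.7e-05). BTG1, an antiproliferative gene, went from 15.5 to 38.4 FPKM, IER3 from 127 to 275 FPKM and MAFF from 4.21 to 11.5 FPKM. Among 18 tested MAP kinase feedback genes 15 rose and 1 fell (median 0.45). The phosphatase DUSP5, which acts on nuclear ERK, went from 7.81, 6.78 and 6.85 to 20.8, 21.1 and 22.5 FPKM, DUSP1 from 116 ± 2.14 to 194 ± 7.46 FPKM, SPRED3 from 0.785 to 2.80 FPKM and SPRY1 from 1.30 to 3.14 FPKM. SPRED3 passed the filter through its treated values and could hardly be called other than higher. CCN2 (listed as CTGF), a matricellular target of YAP and AP-1, fell from 2.79 to 1.03 FPKM. Of the other 20 tested genes on the YAP list 6 rose and 9 fell, among the latter AJUBA (22.7 to 16.4 FPKM) and AMOTL2 (21.1 to 12.3 FPKM).

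Antigen presentation and complement genes rose. Of 14 tested MHC class I genes 9 rose and 2 fell, with a median of 0.53. HLA-B, a class I heavy chain, went from 58.0, 61.0 and 56.5 to 202, 194 and 213 FPKM (1.78 ± 0.05, limma adjusted p = 1.8e-06). HLA-C went from 110 ± 2 to 275 ± 2.42 FPKM and HLA-E from 49.7 ± 0.533 to 101 ± 0.844 FPKM. These heavy chain genes are close relatives whose fragments the counting could split, so their separate sizes are uncertain. Their shared light chain B2M, which has no such copy, rose from 120 to 205 FPKM, while the peptide transporter subunit TAP2 fell from 4.86 to 2.91 FPKM. The number of class I genes that fell was 1 without the first untreated, the second untreated, the second geniposide or the third geniposide library.

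Of 37 complement and acute phase genes 12 were tested, 11 rose and 0 fell, with a median of 0.56. CFD, the serine protease of the alternative pathway, went from 37.8, 39.9 and 39.0 to 108, 103 and 116 FPKM. The membrane inhibitors CD46 (49.6 to 93.0 FPKM) and CD55 (151 to 227 FPKM) rose beside C3 (27.5 to 40.4 FPKM). The remaining 25, among them the liver acute phase proteins SAA2 and CRP at 0, did not reach the filter. Interferon genes were divided. Of 29 tested, 17 rose and 6 fell, with a median of 0.40. Untreated means reached 1 FPKM in 24 listed genes and treated means in 28, and with a filter of 5 FPKM 7 rose and 4 fell. IFI6 went from 10.3, 10.4 and 12 to 47.4, 43.8 and 37.9 FPKM, OAS1 from 5.23 to 11.4 FPKM and ISG15 from 15.7 to 26.4 FPKM. IFITM3, a membrane restriction factor, fell from 331 to 225 FPKM. Of 21 tested NF-kB targets 10 rose and 3 fell, including the feedback inhibitor NFKBIA (36.5 to 65.3 FPKM), TNIP1 (21.5 to 34.7 FPKM) and the manganese superoxide dismutase SOD2 (6.10 to 11.9 FPKM). The NF-kB median was 0.19, and it was 0.05 without the first and 0.30 without the third geniposide library.

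Of 15 tested genes of prostaglandin synthesis and breakdown 6 rose and 6 fell. Both cyclooxygenases rose, PTGS2 as above and the constitutive PTGS1 from 17.2, 15.8 and 15.6 to 60.9, 56.8 and 57.9 FPKM (1.79 ± 0.05, limma adjusted p = 1.8e-06). Both PTGES and PTGES2, synthases of prostaglandin E2, fell, PTGES from 108, 108 and 104 to 41.7, 41.1 and 47.3 FPKM, and PTGES2 from 60.1 ± 0.240 to 32.8 ± 0.346 FPKM.

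The genes that fell together were those of protein synthesis, folding, respiration and DNA replication. Of 34 tested genes of ribosome assembly and MYC targets 29 fell and 2 rose, with a median of −0.76. NOLC1, a nucleolar scaffold, went from 73.1, 75.1 and 71.6 to 35.3, 33.3 and 34.5 FPKM (−1.07 ± 0.04, limma adjusted p = 3.5e-06). MRTO4, a large subunit assembly factor, went from 27.4 ± 1.05 to 11.9 ± 0.168 FPKM, and nucleolin (NCL) from 80.8 ± 0.370 to 50.0 ± 0.376 FPKM. MYC itself stood at 113 and 125 FPKM and was not called (0.14, limma adjusted p = 0.0584). PPAN, an assembly factor that shares its locus with P2RY11, rose from 2.99 to 7.77 FPKM. The proteins of the finished cytosolic ribosome did not follow. Of 41 tested 7 rose and 7 fell (17.1% each), with a median of 0.00. RPSA fell from 413 to 322 FPKM and RPS27 rose from 283 to 360 FPKM. The number that rose ranged from 4 without the second untreated to 11 without the second geniposide library, and was 17 with TPM scaling.

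Of 20 cytosolic aminoacyl-tRNA synthetases, which charge tRNAs with amino acids, 19 fell and 1 rose, with a median of −0.59. WARS1 (listed as WARS), for tryptophan, went from 21.1, 21.6 and 22.0 to 6.97, 6.5 and 6.83 FPKM (−1.54 ± 0.04, limma adjusted p = 1.8e-06). VARS1, for valine, went from 89.8 to 40.5 FPKM, MARS1, for methionine, from 26.0 to 10.3 FPKM, and IARS1, for isoleucine, from 48.9 to 25.1 FPKM. Of 36 tested ATF4 targets, genes of the amino acid response, 11 rose and 18 fell. Without the synthetases on that list, 11 of 33 rose and 15 fell. The serine enzyme PSAT1 fell from 76.0 to 27.6 FPKM and the amino acid carrier SLC38A2 rose from 106 to 183 FPKM.

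Chaperones fell in the cytosol and mitochondria. Of 24 tested heat shock genes 21 fell and 2 rose, with a median of −0.62. HSP90AA1, the inducible HSP90, went from 328, 333 and 332 to 163, 159 and 171 FPKM (−1.01 ± 0.04, limma adjusted p = 3.6e-06). HSPA4 went from 54.7 to 26.5 FPKM, the HSP70-HSP90 organizer STIP1 from 79.4 to 43.9 FPKM and the mitochondrial HSPA9 from 65.8 to 36.9 FPKM. In these 4 genes no treated library reached the untreated range. They were named for the smallest p of the list, and the groups did not overlap in 65.4% of all genes tested. In the endoplasmic reticulum, 15 of 28 tested unfolded protein response genes fell and 6 rose. HSPA5, the BiP chaperone, fell from 198 to 105 FPKM, CALR from 464 to 300 FPKM and HYOU1 from 36.1 to 24.3 FPKM. With all 12 libraries in the fit these counts were 8 and 2, and HSPA5 was not called (limma adjusted p = 0.0613).

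Respiratory genes fell in both genomes. Of 41 tested nuclear genes of oxidative phosphorylation 33 fell and 0 rose, with a median of −0.39. ATP5MC1, a c-ring subunit of ATP synthase, went from 45.3, 49.5 and 45.9 to 14.8, 13.8 and 16.1 FPKM (−1.59 ± 0.06, limma adjusted p = 4e-06). The catalytic subunit ATP5F1B went from 656 ± 15.2 to 344 ± 12.8 FPKM, NDUFB9 of complex I from 17.3 to 9.90 FPKM and SDHB of complex II from 36.5 to 22.3 FPKM. Of the 13 proteins of the mitochondrial genome 10 fell and 0 rose, with a median of −0.72. MT-ND2 went from 1719, 1706 and 1721 to 799, 746 and 921 FPKM (−1.07 ± 0.08, limma adjusted p = 3.5e-05), and MT-ATP6 from 4418, 4279 and 4383 to 2307, 2161 and 2539 FPKM. In most of these mRNAs the third geniposide library was the highest of the treated. MT-CO1 (8170 and 7629 FPKM), MT-ND5 (1611 and 1540 FPKM) and MT-ND6 (1889 and 2007 FPKM) were not called. The large ribosomal RNA MT-RNR2, transcribed from the same strand as most of the mRNAs, rose from 4154 to 5038 FPKM (0.28, 95% confidence interval 0.15 to 0.41), and the small one, MT-RNR1, fell from 610 to 540 FPKM (limma adjusted p = 0.0403). Mitochondrial genes lie on both strands and some overlap, so without strand the split among these transcripts is uncertain.

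**Figure D4:**
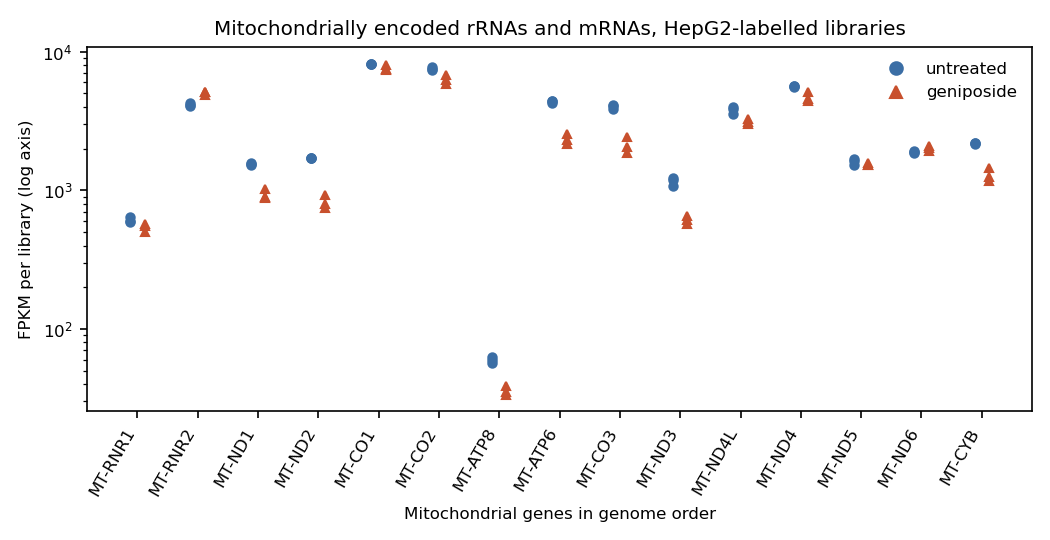
FPKM per library (log axis) of the 2 rRNAs and 13 mRNAs encoded by the mitochondrial genome, in genome order, with circles for untreated and triangles for geniposide. MT-ND1, MT-ND2, MT-ATP8, MT-ATP6, MT-CO3, MT-ND3 and MT-CYB show wide gaps between the groups, while MT-CO1, MT-ND5 and MT-ND6 lie close and MT-RNR2 is higher with geniposide.

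Genes of DNA synthesis and of mitosis fell. Of 41 tested genes of DNA replication and G1/S 35 fell and 2 rose, with a median of −0.44. UHRF1, which guides maintenance methylation, went from 38.2, 37.5 and 37.9 to 16.4, 15.8 and 16.2 FPKM (−1.18 ± 0.03, limma adjusted p = 1.9e-06). Its partner DNMT1 went from 39.1 to 23.5 FPKM and the helicase activator CDC45 from 22.2 to 11.4 FPKM. The licensing factor CDT1 rose from 63.5 to 107 FPKM, and the other riser, E2F1, stood at 25.8 and 29 FPKM and 1 gene of the list rose without the first or the third untreated library or without any of the treated ones. Of 40 tested mitotic genes 26 fell and 2 rose, with a median of −0.20, and 17 fell and 6 rose with quantile normalization. TPX2, a spindle assembly factor, fell from 82.3 to 57.6 FPKM, and the phosphatase CDC25B rose from 55.6 to 77.1 FPKM. The difference between these lists was not tested. Of 14 tested G1 cyclins and CDK inhibitors 6 rose and 6 fell (median 0.03), and 3 and 3 with all 12 libraries in the fit. Cyclin D1 (CCND1) went from 44.7, 42.2 and 42.9 to 20.3, 19.9 and 18.9 FPKM, and cyclin D3 (CCND3) from 23.5 to 15.3 FPKM. The inhibitors CDKN1B (48.2 to 70.9 FPKM) and CDKN2D (5.83 to 13.6 FPKM) rose.

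**Figure D5:**
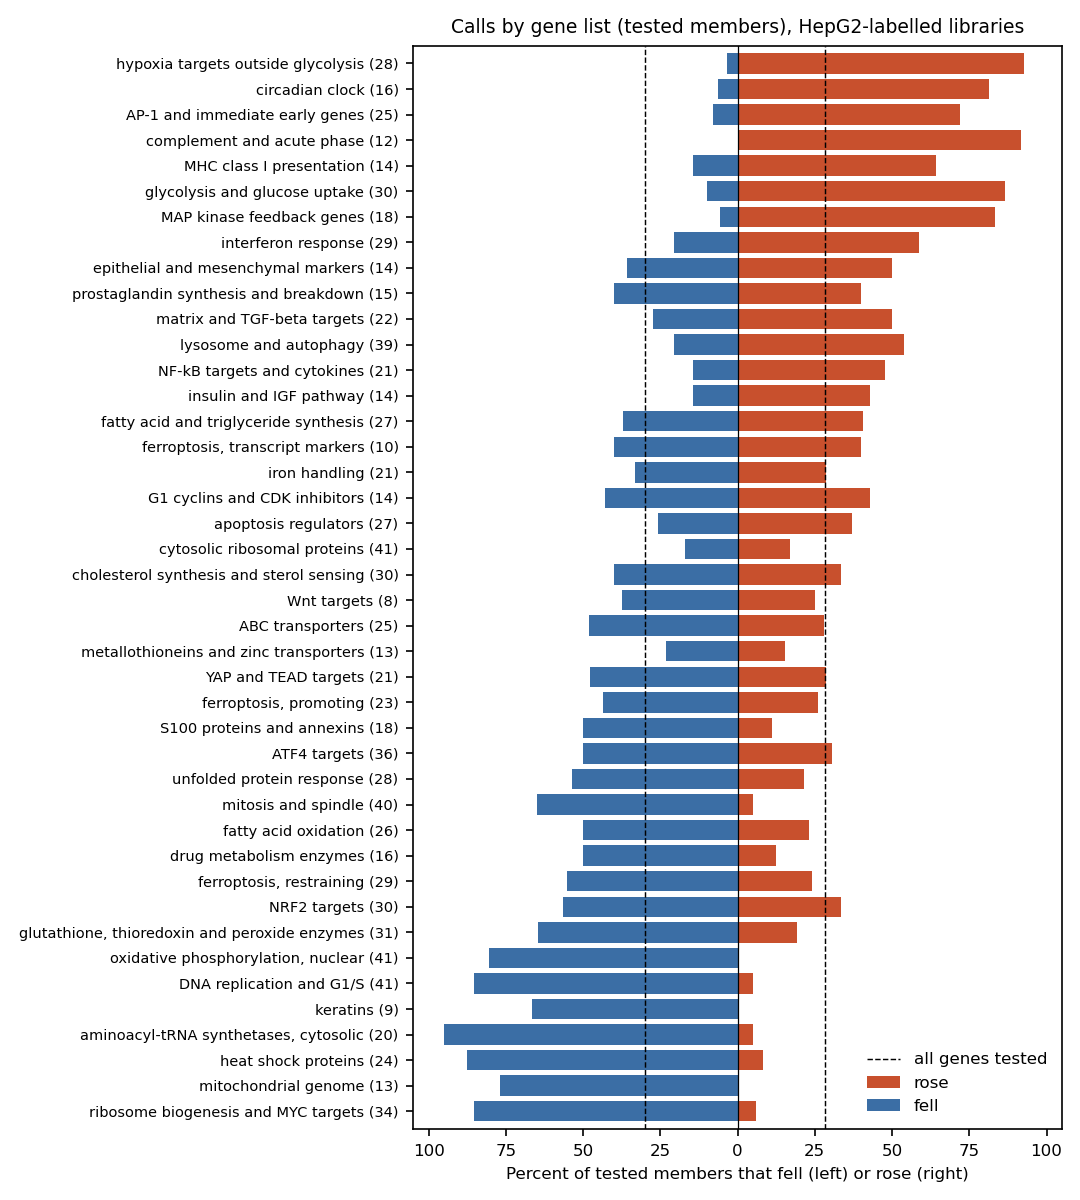
Bars give, for the gene lists shown, each with 5 or more tested members (number in brackets), the percent that fell (left, blue) and rose (right, red), ordered by median change, with dashed lines at the share of all tested genes, 30% and 28.2%. Hypoxia, complement, glycolysis and MAP kinase feedback genes are mostly red, and synthetases, heat shock, replication and ribosome biogenesis genes mostly blue.

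The ferroptosis genes moved in both directions and mostly by little. DUOX1, the oxidase named in the title, did not reach the filter of 1 FPKM, at 0.268, 0.195 and 0.300 FPKM untreated against 0.895, 0.756 and 0.720 FPKM treated. In the fit without the filter its change was 0.51 ± 0.08 (limma adjusted p = 0.00621), from 26 to 38 fragments per untreated and 94 to 115 per treated library. DUOX2 stood at 0.0664 and 0.177 FPKM, from 9 to 10 fragments per untreated and 23 to 29 per treated library. Its maturation factor DUOXA2 (0.0439 and 0.117 FPKM) and that of DUOX1, DUOXA1 (0.0121 and 0.0367 FPKM), held 0 to 9 and 0 to 4 fragments per library, with overlapping groups. NOXA1, an activator of NADPH oxidase 1, rose from 5.25 to 8.15 FPKM, while the shared subunit CYBA fell from 44.9 to 37.0 FPKM.

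Of 29 tested genes that restrain ferroptosis 16 fell (55.2%) and 7 rose (24.1%), with a median of −0.24. GPX4, the lipid peroxide reductase, stood at 97.2, 99.2 and 95.1 against 103, 94.8 and 111 FPKM, and its groups overlapped (0.08, limma adjusted p = 0.285). It passed the threshold with TPM scaling (limma adjusted p = 0.0246) and quantile normalization (0.0242). The glutathione branch was lower. SLC7A11, the cystine carrier, went from 4.67, 4.77 and 4.51 to 3.29, 2.85 and 2.99 FPKM, a fall that was not called with all 12 libraries in the fit (limma adjusted p = 0.0922). Its heavy chain SLC3A2 fell from 142 to 89.8 FPKM, glutathione synthetase (GSS) from 13.3 ± 0.1 to 7.93 ± 0.109 FPKM and PRDX6 from 191 to 132 FPKM. AIFM2, the ubiquinone reductase that acts beside GPX4, stood at 9.53 and 10.7 FPKM (0.15) and lost its call with all 12 libraries or without the third untreated library. The number of restraining genes that rose was 4 without the second untreated, the third untreated or the second geniposide library, and 1 with all 12 libraries.

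On the promoting side 6 of 23 tested rose (26.1%) and 10 fell (43.5%), against 28.2% and 30% of all genes tested. The spermidine acetyltransferase SAT1 rose from 26.8 to 61.4 FPKM, the haem-sensing repressor BACH1 from 8.83 to 16.4 FPKM and ACSL4, which loads membranes with polyunsaturated fat, from 24.4 to 28.1 FPKM. TFRC, the transferrin receptor, fell from 131, 125 and 124 to 80.7, 80.9 and 79.1 FPKM. The ferritin chains parted. FTH1 went from 1554, 1570 and 1480 to 2025, 2118 and 2334 FPKM, and FTL stood at 1753, 1735 and 1672 against 1408, 1338 and 1634 FPKM. The FTL call (limma adjusted p = 0.0306) was lost in 8 alternatives, among them without any untreated library or the first or second geniposide library (limma adjusted p 0.0548 to 0.102). Of the transcripts used as ferroptosis markers, PTGS2 rose, HMOX1 stood at 13.9 and 11 FPKM (a fall not called with all 12 libraries, limma adjusted p = 0.572), and CHAC1 stood at 1.08 and 0.470 FPKM below the filter. CHAC1 passed the threshold, as a fall, without the first untreated library (limma adjusted p = 0.0297). It also passed with quantile normalization (limma adjusted p = 0.0416) and with voom on recovered fragments (limma adjusted p = 0.0277).

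Redox enzymes were mostly lower. Of 31 tested genes of glutathione, thioredoxin and peroxide metabolism 20 fell and 6 rose, with a median of −0.39. Without members shared with the ferroptosis-restraining list, 15 of 24 fell and 6 rose. PRDX1, an abundant peroxiredoxin, went from 357, 365 and 349 to 202, 195 and 200 FPKM. Of 30 tested NRF2 targets 17 fell and 10 rose, and the 4 with the smallest p all rose: AKR1C1 (4.34 to 12.8 FPKM), EPHX1 (35.0 to 72.5 FPKM), SLC6A6 (37.6 to 61.8 FPKM) and AKR1C2 (8.49 to 17.4 FPKM). The aldo-keto reductases are near copies, so fragments may be split between them. Drug-metabolizing enzymes followed, with 8 of 16 tested lower and 2 higher. GSTP1 (195 to 110 FPKM) and GSTO1 (162 to 81.3 FPKM) led the falls. EPHX1, which rose as above, is on this list too and had its smallest p. Metallothionein MT1E fell from 20.4 to 7.01 FPKM.

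Lipid lists held both rises and falls, as did protein-coding genes at large (28.3% rose and 34.6% fell). In the cholesterol list 33.3% rose and 40% fell, near those shares. Of 30 tested cholesterol genes 10 rose and 12 fell: the sterol sensor INSIG2 (12.9 to 27.0 FPKM) and the exporter ABCG1 (1.35 to 4.65 FPKM) rose, and the synthesis enzymes FDFT1 (43.6 to 28.8 FPKM) and HMGCS1 (11.9 to 7.56 FPKM) fell. Of 27 fatty acid and triglyceride synthesis genes 11 rose (40.7%) and 10 fell (37%). SREBF1, the lipogenic factor, went from 55.0, 59.5 and 57.9 to 30.9, 32.1 and 33.0 FPKM, and its target ACLY from 93.6 to 56.2 FPKM. HILPDA, a hypoxia-induced lipase inhibitor of lipid droplets, rose from 30.3 to 73.6 FPKM. In fatty acid oxidation 13 of 26 fell and 6 rose, and 8 fell without the second untreated library. The pyruvate dehydrogenase kinase PDK4 rose from 8.19 to 18.1 FPKM and the carnitine transferase CPT1A fell from 27.8 to 19.3 FPKM. Lysosome and autophagy genes leaned upward, with 21 of 39 higher and 8 lower, led by acid glucosidase GAA (17.2 to 33.9 FPKM) and cathepsin D (CTSD, 91.1 to 164 FPKM).

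Epithelial structure genes changed as well. Of 9 tested keratins 6 fell and 0 rose, with a median of −0.57. The simple epithelial pair KRT8 (336 to 161 FPKM) and KRT18 (321 to 199 FPKM) fell with KRT7 and KRT80 (82.5 to 33.6 FPKM). MUC1, a membrane mucin that shares the cholangiocyte list with KRT7, rose from 38.7 to 84.9 FPKM. Of 18 tested S100 proteins and annexins 9 fell and 2 rose, among them ANXA2 (98.1 to 57.3 FPKM) and ANXA8 (12.3 to 4.62 FPKM). Of 14 epithelial and mesenchymal markers 7 rose and 5 fell, with no common direction: CLDN7 (9.89 to 16.9 FPKM) and TWIST1 (5.36 to 8.77 FPKM) rose, CDH2 (21.4 to 14.7 FPKM) fell. Of the 13 fibroblast markers 7 were tested, 4 rose and 3 fell, and their summed level went from 78.7 to 80.4 FPKM per untreated library to 108 to 112 FPKM per treated library, with LUM at 35.4 and 59.5 FPKM, while COL1A2 and PDGFRA were listed at 0. The part of these markers in the matrix counts above was not tested.

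Survival and hormone genes were mixed. Of 27 tested apoptosis regulators 10 rose (37%) and 7 fell (25.9%), not far from the shares over all genes tested (28.2% and 30%). The BH3-only genes BMF (1.45 to 4.50 FPKM), BCL2L11 (2.40 to 5.29 FPKM) and BBC3 (3.95 to 8.89 FPKM), whose products promote apoptosis, rose, as did the inhibitor BIRC3 (14.1 to 26.6 FPKM). In the insulin and IGF pathway IGF1R fell from 19.3 to 11.3 FPKM and IRS2 rose from 32.2 to 63.3 FPKM. CTNNB1, beta-catenin, fell from 30.7 to 21.0 FPKM.

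Among lncRNAs, 148 of 436 tested lincRNA genes rose (33.9%) and 46 fell (10.6%). Of 585 antisense genes 172 rose (29.4%) and 42 fell (7.18%). Over all genes tested 28.2% rose and 30% fell, so the share of antisense genes that rose was near that at large. The library protocol marks no strand, so antisense values cannot be told from their partners. LINC00163 went from 0.717, 0.520 and 1.06 to 4.47, 5.83 and 6.67 FPKM (1.91 ± 0.16, limma adjusted p = 6.1e-05). It passed the filter through its treated values and could hardly be called other than higher. AL591845.1 went from 2.61 to 10.8 FPKM, and AL162424.1 from 1.52, 2.38 and 0 to 8.04, 7.67 and 4.63 FPKM. AL162424.1 lies within PTGS1 on the same strand and held 0 to 26 fragments per library, so its fragments cannot be told from unspliced PTGS1 RNA. AC245041.1 fell from 32.6, 30.4 and 35.6 to 5.38, 9.49 and 6.03 FPKM, AL162582.1 from 9.76 to 2.17 FPKM and AL160254.1 from 3.40 to 0.866 FPKM. The imprinted H19 stood at 68.9, 79.6 and 66.3 untreated and at 319, 124 and 148 FPKM treated, with the first geniposide library far above the others.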

How the data were processed

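The authors deposited 1 table of FPKM for 58735 genes in 12 samples. The tools named are CASAVA and fastp and the build is hg38, per the submitters' processing notes. The sources used here do not give the aligner or counter. The table also lists gene lengths and coordinates as other values, and all identifiers were found in GENCODE 29. FPKM times length gave whole fragments for 100% of values (within 0.05 fragments) in the HepG2-labelled libraries, which set depths and floors of 3 fragments. These floors cover counting error only.

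Changes were fitted with limma 3.58.1 (R 4.3.3) on log2(FPKM + 1) in the 6 HepG2-labelled samples, letting the variance follow the mean level, and two-sided p-values were adjusted by Benjamini-Hochberg over 13119 genes with a threshold of 0.05. This scale understates changes near 1 FPKM. The difference between lines came from the 12 samples. Genes below the filter come from the fit without it.

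The members, the 44 pathway and 10 marker lists and the rule for names were chosen with earlier results of these data known. All 1301 list symbols were found, 25 through newer symbols. The rule names the 12 largest protein-coding rises and falls with no overlap and a higher mean of at least 2 FPKM, the 3 largest lncRNA rises and falls, up to 4 called members per list with the smallest p, and a fixed set around ferroptosis. PGK1, GAPDH, LDHA, LDHB, SLC2A1, HIF1A, EPAS1, EGLN1, BMAL1, CLOCK, PER2, CRY2, BHLHE40, B2M, TAP2, C3, MYC, PPAN, CDT1, E2F1, MUC1, LUM, H19, S100A8, S100A9, HBB, PCK1, APOE and the other mitochondrial transcripts were named after their values were seen. Alternatives covered the pseudocount (0.1 FPKM), filters (none, 5 FPKM), scaling, samples, block, trend, voom and each library left out. Promoter windows came from RefSeq (GRCh38.p14). Some genes that the rule names are not reported here.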

Additional observations from a re-analysis of the deposited data

Results flagged for a closer look

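The geniposide effect was set against that in the other line for the 5 largest rises and 5 largest falls (HepG2-labelled minus Huh7-labelled, log2 scale, limma over 15518 genes in 12 libraries, 4317 genes called, 27.8%). These 10 genes were chosen for their change in HepG2-labelled libraries, which is part of the difference, so the values are a description and support no claim that the lines differ. For 6 of them the gene was near 0 in Huh7-labelled libraries and the difference mostly restates the HepG2-labelled change. CA9 (difference 2.116), A2M (2.113) and PTGS2 (2.032) had untreated Huh7-labelled means of 0.0121, 0.0154 and 0.101 FPKM. KLHL4 (-2.997), ANKRD2 (-2.275) and KRT7 (-1.921) had means of 0.0273, 0 and 0 FPKM there and could hardly fall.

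The third Huh7-labelled geniposide library stood far apart (chi-square per degree of freedom 43.4 and 44.9, against 3.01 between the other 2), and without it 6170 line differences were called. TXNIP differed by -0.6017, with Huh7-labelled means of 7.51 and 69.3 FPKM. GAL differed by -1.018, against Huh7-labelled means of 77.1 and 38.2 FPKM. CHAC2 differed by -1.438, and by -1.12 without that library, with Huh7-labelled means of 11 ± 0.140 and 8.63 ± 4.04 FPKM (SD). NDUFA4L2 differed by 1.068 with Huh7-labelled means of 0.343 and 2.40 FPKM, by -0.0551 with a pseudocount of 0.1 FPKM and by 0.29 with TPM scaling.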

How the results depend on the processing

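Of 190 called genes named by the rule, 13 lost their call in some alternative and 0 reversed. The count of calls was 6773 to 7540 with each library left out in turn, against 7635. With a filter of 5 FPKM 2459 genes rose rather than 3700, from 7965 genes tested. Genes called at 2-fold or more numbered 445, and 909 with a pseudocount of 0.1 FPKM, 784 with TPM scaling and 969 with voom on recovered fragments. The NDUFA4L2 line difference turned to -0.0551 with the smaller pseudocount. Of the list medians, prostaglandin genes turned to -0.0685 with the 5 FPKM filter, drug metabolism to 0.0038 and fibroblast markers to -0.0554 without a filter. A further 8 lists, whose medians lay within 0.089 of 0, changed sign in at least 1 alternative, reaching at most 0.081 on the other side. TPM scaling moved the median of all genes to 0.07, with 4374 genes higher and 3326 lower.

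The replicate numbers did not pair the libraries: deviations of equal numbers correlated at 0.016, -0.053 and -0.106 over 13119 genes. With the numbers as a replicate block 7077 genes were called, 3398 higher and 3679 lower, 446 at 2-fold or more, and 3160 line differences. FTL, RAC1 and DUOX2 then lost their calls.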

Other observations

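Some gene families outside the lists were counted after their values were seen, and are given as description only. Of 35 tested replication-dependent histone genes 25 were higher and 1 lower. Poly(A) RNA was sequenced, and how much of the histone mRNA it holds was not tested, so histone mRNA levels cannot be read from these counts. HIST1H4C, a member, held 0 to 37 fragments per library. Of 76 mitochondrial ribosomal proteins 65 were lower and 2 higher, and of 37 proteasome subunits 33 were lower and 1 higher. The 8 tested genes of the TRiC chaperonin, which folds actin and tubulin, were all lower, and 7 of 9 tubulin genes. Of 48 DEAD and DEAH box helicases 33 were lower and 9 higher. Of 13 KLF factors 12 were higher and 0 lower, and of 270 zinc finger genes named ZNF 99 were higher and 23 lower.

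By length quartile the median change was 0.04, -0.06, -0.01 and 0.04 from the shortest to the longest genes. PCK1, the gluconeogenic enzyme, stood at 0.126 untreated and 0.830 FPKM treated, and APOE at 0.0942 and 0.669 FPKM, both under the filter.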
